A study of Mus musculus with 14 samples.

Results

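Collagen genes other than those of collagen VI were examined in tumorspheres of 5 mouse ovarian carcinoma lines. The members were the protein-coding genes of the deposited table whose symbol is Col, a number, the letter a and a number, leaving out every symbol that begins with Col6a, which gave 38 of 35275 genes. KMF cells (n = 3) are the parental line, obtained from ID8 ovarian epithelial cells of C57Bl6 mice by passage in vivo. FAK KO cells (n = 3) are KT13, a single clone of KMF in which Ptk2, the gene of focal adhesion kinase (FAK), was disrupted by CRISPR/Cas9. The other 3 lines were made from KT13, so each carries the same disrupted Ptk2 alleles: FAK-WT cells (n = 3) re-express GFP-FAK from a lentivirus with a CMV promoter, FAK-R454 cells (n = 2) re-express a kinase-inactive GFP-FAK, and β-catenin ΔGSK cells (n = 3) express an active β-catenin, delivered by a retrovirus, that GSK-3 cannot mark for breakdown. All samples came from cells grown for 5 days without anchorage as tumorspheres in serum-free medium. KT13 being 1 clone, a difference between KMF and FAK KO cells cannot be told apart from a difference between the clone and its parental population, and the transduced lines were also drug-selected and sorted.

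Collagens are secreted proteins made of polypeptide chains wound together into a helix, and a chain leaves the cell in quantity only after that helix has folded with the correct partner chains in the endoplasmic reticulum. Fibrillar collagens assemble into the cross-banded fibrils of connective tissue, collagen IV chains form the sheet-like network of basement membranes, FACIT collagens sit on fibril surfaces, multiplexins carry endostatin-like domains next to basement membranes, and transmembrane collagens stay anchored in the cell surface. Ovarian surface epithelium rests on a basement membrane, and many ovarian carcinomas have a collagen-rich matrix to which tumour cells bind through integrins, receptors that signal through FAK.

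Whole fragments recovered from the deposited FPKM (fragments per kilobase of gene with library size scaled out) showed 25390558 to 35289859 fragments on genes per library, of which the 38 members took between 0.113% and 0.359%. FPKM is already scaled by gene length, so levels are compared between genes on that scale. Ptk2 was at 17.6 to 20.5 FPKM in FAK KO, 42.3 to 45.4 in FAK-WT and 59.2 to 65.5 in FAK-R454 samples. Because the edit leaves most of the transcript, this whole-gene value does not check the knockout. Ctnnb1, the gene of β-catenin, was at 207 to 223 FPKM in β-catenin ΔGSK and 139.5 to 148 FPKM in FAK KO cells, with KMF samples close to the former at 195 to 207 FPKM and the others at 127 to 139 FPKM. In β-catenin ΔGSK cells the value is a sum of the mouse gene and of whatever part of the added sequence maps to it. Among 7 ovarian surface epithelium markers, 6 were expressed in every line (Krt8, Krt18, Krt19, Msln, Upk3b and Wt1), while Krt7 stayed at or below 0.420 FPKM. Of 6 fibroblast or stromal markers Pdgfrb, Thy1, Lum and Acta2 were at most 0.243 FPKM in any library, but Dcn (29.6 to 125 FPKM) and Pdgfra (0.765 to 11.7 FPKM) were present. Ptprc, Cd3e and Itgam did not exceed 0.0149 FPKM and Kdr and Cdh5 did not exceed 0.0432 FPKM, whereas the leukocyte-list gene Cd68 reached 12.3 FPKM and the endothelium-list gene Tek 28.8 FPKM. By the paper's methods the KMF samples were taken at differing passages, and for the other lines the sources used here speak of replicate RNA samples without naming cultures, so the p-values measure the spread between these samples.

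Of the 38 members, 19 had a mean above 1 FPKM in at least 1 line and 19 did not. The number above 1 FPKM was 16 for FAK-WT and for FAK-R454, 15 for FAK KO, 13 for KMF and 11 for β-catenin ΔGSK cells. Summed over all members, the level was 491 ± 34.8 FPKM in KMF cells (SD, n = 3), 418 ± 31.7 in FAK KO cells (SD, n = 3), 518 ± 71.0 in FAK-WT cells (SD, n = 3) and 536 ± 3.99 in FAK-R454 cells (SD, n = 2). β-catenin ΔGSK cells summed to 187 ± 16.8 FPKM (SD, n = 3), and their highest sample (205.4 FPKM) lay under the lowest sample of any other line (397 FPKM). Of the 19 expressed members, β-catenin ΔGSK cells had the lowest mean for 11 and the highest for 3.

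The structural classes ranked the lines in different orders. The 11 fibrillar genes summed to 16.7 ± 2.62 FPKM in FAK KO cells, 64.4 ± 8.21 in KMF cells, 72.6 ± 14.8 in FAK-WT cells (SD, n = 3 each), 60.3 ± 0.60 in FAK-R454 cells (SD, n = 2) and 1.49 ± 0.245 in β-catenin ΔGSK cells (SD, n = 3). The 6 collagen IV genes ranged less, from 136 ± 10.9 FPKM in β-catenin ΔGSK cells to 223 ± 31.8 in KMF cells (SD, n = 3 each). Both multiplexins together held 7.28 ± 1.89 FPKM in β-catenin ΔGSK against 199 ± 9.83 in FAK KO cells (SD, n = 3 each). The 9 FACIT genes were the exception to the low sums of β-catenin ΔGSK cells, at 40.1 ± 4.57 FPKM against 19.8 ± 2.90 in FAK KO cells (SD, n = 3 each). FACIT sums were 36.4 ± 17.2 FPKM in FAK-WT, 22.5 ± 4.87 in KMF (SD, n = 3 each) and 30.7 ± 0.0332 in FAK-R454 cells (SD, n = 2). FAK-WT samples, at 23.0 to 55.8 FPKM, overlapped those of β-catenin ΔGSK cells, at 36.5 to 45.2. Col15a1 was the most abundant member in every line but β-catenin ΔGSK, with 36.2% to 46.7% of the summed level, and Col4a2 in β-catenin ΔGSK cells, at 24.5%. Sums over classes were not tested.

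**Figure D1:**
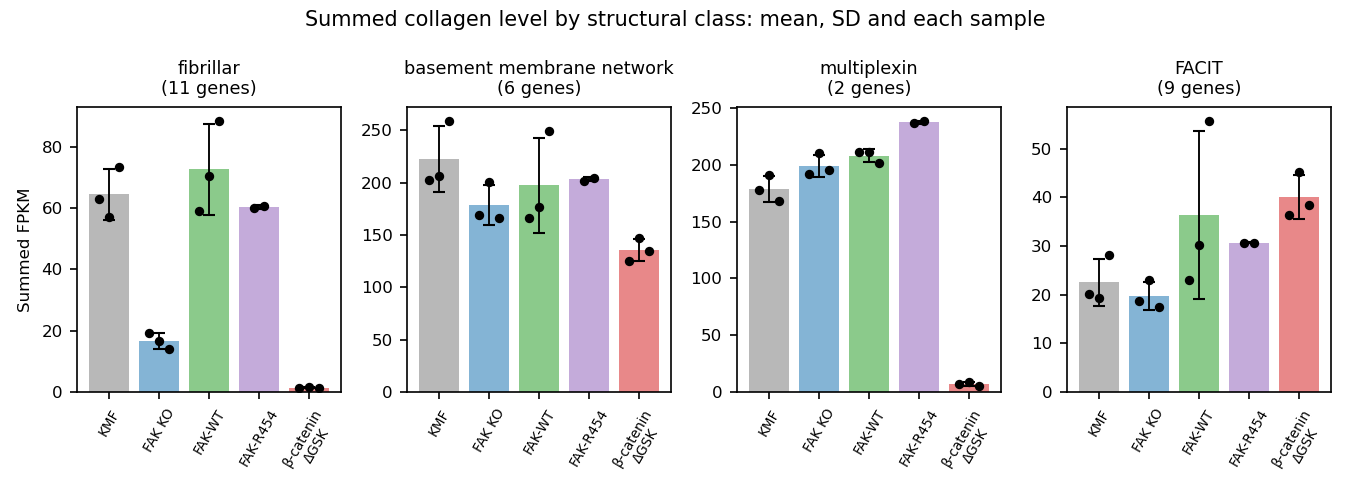
Summed FPKM (vertical axis, linear from 0) of 4 structural classes of collagen genes in each line, with bars at the mean, error bars of 1 SD and a point per sample (n = 3, and n = 2 for FAK-R454). The fibrillar sum of FAK KO cells (16.7 ± 2.62 FPKM) and that of β-catenin ΔGSK cells (1.49 ± 0.245 FPKM) lie below the other lines, and the multiplexin sum is low in β-catenin ΔGSK cells alone.

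The start regions of 4 members around which the comparisons turn are given first, from RefSeq (GRCm38.p6), each from 250 bases before to 50 bases after the annotated start and read 5′ to 3′ on the gene's strand. Of the 38 members, 29 matched an entry by symbol, with 31 start regions in all. Capitals mark matches, on either strand, to the CCAAT box, to the GC box spelled GGGCGG, to the letters TTCAAAG (a core that TCF/LEF factors, the DNA-binding partners of β-catenin, can recognise) or to the AP-1 core TGANTCA, and no base was shared by matches of different motifs. Col3a1 and Col5a1 are shown because both fibrillar genes rose with FAK re-expression and fell in β-catenin ΔGSK cells, Col15a1 because, among the members tested, it had the largest fall from FAK KO to β-catenin ΔGSK cells, and Col4a2 because Col4a1 starts inside the same region on the other strand.
Col3a1, chr1:45311288-45311587, plus strand: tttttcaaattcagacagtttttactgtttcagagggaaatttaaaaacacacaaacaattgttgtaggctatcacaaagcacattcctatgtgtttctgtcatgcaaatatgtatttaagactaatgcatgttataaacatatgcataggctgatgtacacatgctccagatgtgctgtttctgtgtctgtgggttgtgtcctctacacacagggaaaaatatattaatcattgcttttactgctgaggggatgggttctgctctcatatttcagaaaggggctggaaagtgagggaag
Col5a1, chr2:27886175-27886474, plus strand: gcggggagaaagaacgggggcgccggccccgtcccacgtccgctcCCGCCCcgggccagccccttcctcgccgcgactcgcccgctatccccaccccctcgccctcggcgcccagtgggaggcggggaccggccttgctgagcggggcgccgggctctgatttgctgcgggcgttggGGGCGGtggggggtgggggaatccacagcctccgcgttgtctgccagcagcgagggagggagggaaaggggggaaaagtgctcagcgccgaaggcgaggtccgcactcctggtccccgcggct
Col15a1, chr4:47207762-47208061, plus strand: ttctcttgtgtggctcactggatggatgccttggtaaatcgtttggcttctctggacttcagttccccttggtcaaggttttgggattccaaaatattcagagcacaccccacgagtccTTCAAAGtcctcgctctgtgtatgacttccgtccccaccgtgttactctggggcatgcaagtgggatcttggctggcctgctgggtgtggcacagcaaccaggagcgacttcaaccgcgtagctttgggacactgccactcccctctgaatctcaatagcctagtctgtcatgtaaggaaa
Col4a2, chr8:11312555-11312854, plus strand: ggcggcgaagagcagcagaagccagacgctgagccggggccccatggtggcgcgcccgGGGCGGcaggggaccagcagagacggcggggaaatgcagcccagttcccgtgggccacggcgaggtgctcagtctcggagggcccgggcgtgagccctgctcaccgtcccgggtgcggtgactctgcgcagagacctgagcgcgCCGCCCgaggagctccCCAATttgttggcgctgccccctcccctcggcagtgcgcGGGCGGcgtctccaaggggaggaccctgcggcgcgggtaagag

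The Col3a1 region held none of these letters and no CG dinucleotide, and 37.7% of its bases were G or C. By contrast the Col5a1 region was 75% G or C with 34 CG dinucleotides and 2 GC boxes, 205 and 73 bases before the start. In the Col15a1 region the only match was TTCAAAG, 131 bases before the start that RefSeq gives, and the whole region lies before the gene start in the deposited table (47208161). That motif stood in 3 of the 31 member regions (Col9a1, Col13a1 and Col15a1) and in 5.14% of all 32851 regions in the table. GGGCGG was in 18 of 31 member regions and 35.7% of all regions, CCAAT in 12 of 31 and 37.4%, and TGANTCA in 0 of 31 and 7.81%. The Col4a2 region had CCAAT 32 bases before the start and 3 GC boxes. These are matches of letters in one window, and binding of any factor was not measured.

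Lines were compared 2 at a time with limma on log2(FPKM + 0.1), over all genes with a mean above 1 FPKM in at least 1 of the 2 lines. Calls needed an adjusted p (Benjamini-Hochberg) under 0.05, a change of at least 2-fold and a mean above 1 FPKM in the higher line. FAK-WT was set against FAK KO to ask which transcript levels follow FAK. Of 17 members tested, 6 were called higher in FAK-WT and 1 lower, beside 2.91% and 1.71% of all 11841 genes tested. The higher members were Col1a1, Col3a1, Col5a1, Col5a3 and Col27a1 of the fibrillar class and the FACIT Col16a1, and the lower one was the FACIT Col22a1. The median log2 fold change of the 17 members was 0.24, and that of all genes -0.08. With kinase-inactive FAK, 6 of 17 members were called higher in FAK-R454 than in FAK KO cells and 0 lower, beside 1.93% and 0.812% of 11818 genes. At an unadjusted p under 0.05 limma also had 0 lower members and 10 higher, beside 2298 and 1980 of the 11818 genes. Voom on the recovered fragments called 0 lower and 7 higher, the seventh being Col16a1, beside 97 and 251 of all genes. The 6 were the fibrillar genes Col1a1, Col3a1, Col5a1, Col5a3 and Col27a1 and the multiplexin Col18a1, and the median was 0.28, beside -0.03 for all genes.

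β-catenin ΔGSK and FAK KO cells were compared to ask which transcript levels differ with active β-catenin in the same clone. Of 16 members tested between β-catenin ΔGSK and FAK KO cells, 2 were called higher (Col12a1 and Col22a1) and 5 lower (Col1a1, Col3a1, Col5a1, Col15a1 and Col18a1), beside 5.13% and 6.99% of 11915 genes. Of the 5 lower members, 4 (Col1a1, Col3a1, Col5a1 and Col18a1) passed the filter through FAK KO alone, and Col12a1 through β-catenin ΔGSK cells alone. The members' median log2 fold change was -0.70 and that of all genes -0.09. Between KMF and FAK KO cells, 2 of 16 members were called higher in KMF (Col3a1 and Col5a2) and 4 lower (Col18a1, Col20a1, Col22a1 and Col23a1), beside 3.97% and 4.04% of 11893 genes, and the median was 0.05, beside -0.05 for all genes.

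The 3 comparisons that leave out FAK KO set the lines against each other directly. FAK-WT and FAK-R454 cells differ in the kinase activity of the re-expressed FAK, and the Ptk2 transcript level was also lower in every FAK-WT sample. This transcript value does not give the level of FAK protein, which these files do not measure. Here limma called 0 of 16 members higher with active FAK and 1, Col22a1, lower, beside 0.696% and 0.747% of 11782 genes. At an unadjusted p under 0.05 in limma 2 members were higher and 4 lower, beside 1132 and 2038 of the 11782 genes. Voom called 0 higher and 1 lower, beside 97 and 91 of all genes. Against FAK-WT cells, β-catenin ΔGSK cells had 2 of 18 members called higher (Col12a1 and Col22a1) and 7 lower (Col1a1, Col3a1, Col5a1, Col5a3, Col15a1, Col18a1 and Col27a1), beside 4.48% and 7.17% of 11873 genes. Their median was -0.70, and that of all genes -0.01. Of 17 members tested between FAK-WT and KMF cells, 5 were called higher in FAK-WT (Col1a1, Col5a3, Col18a1, Col22a1 and Col27a1) and 1 lower (Col5a2), beside 3.82% and 2.11% of 11847 genes, with a median of 0.56 and one of -0.04 over all genes. Members that passed the filter through 1 line only numbered 0 between FAK-WT and FAK-R454 cells and 3 to 9 in the other comparisons. Such a gene differs by the way it was admitted, so the counts describe the named genes and support nothing beyond them. The 4 comparisons against FAK KO share its 3 samples.

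**Figure D2:**
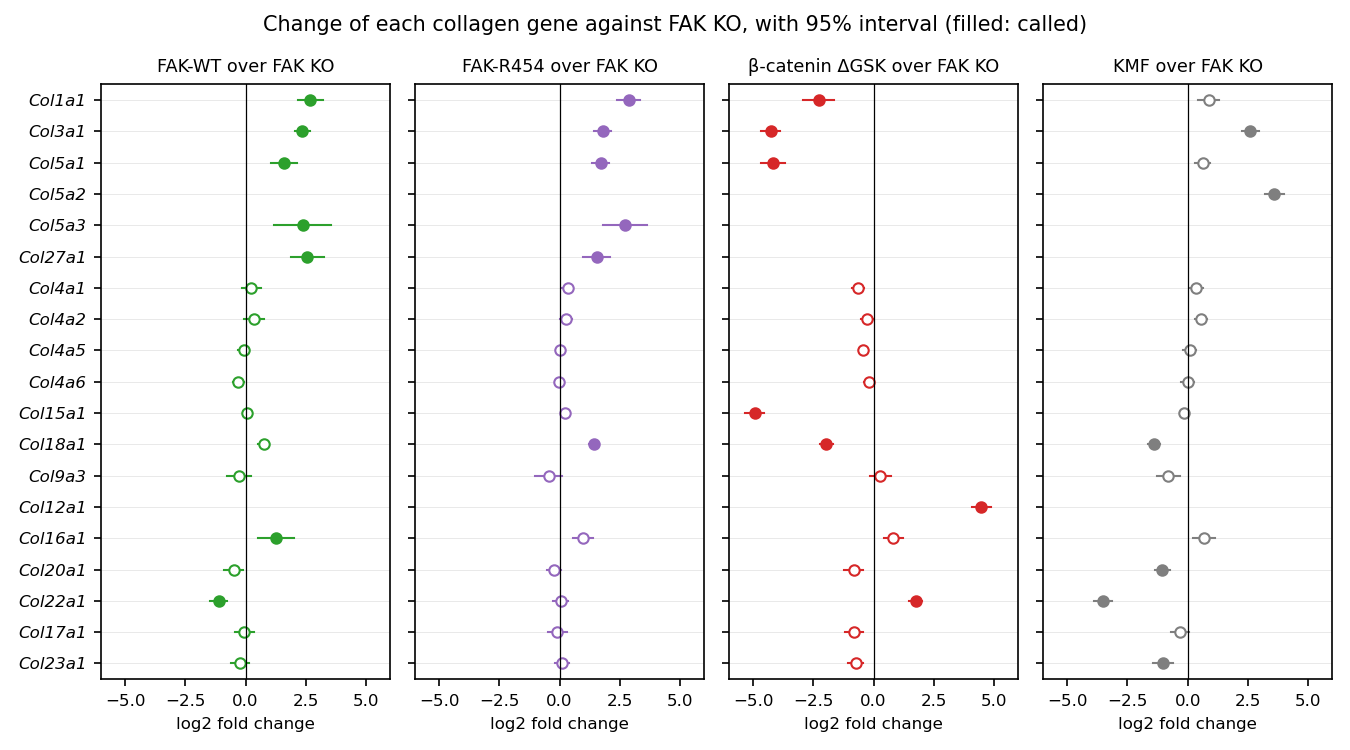
Log2 fold change over FAK KO (horizontal axis, on the log2(FPKM + 0.1) scale) of the 19 collagen genes above 1 FPKM in at least 1 line, ordered by class, with 95% intervals from limma and filled points for called genes. A gene not tested in a comparison has no point. Col1a1, Col3a1 and Col5a1 lie right of 0 for FAK-WT, FAK-R454 and KMF and left of 0 for β-catenin ΔGSK, where Col15a1 has the lowest value (-4.95).

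Among fibrillar genes, Col3a1 (ENSMUSG00000026043, chromosome 1, 45311538 to 45349706, plus strand, coordinates of mm10) encodes the α1 chain of collagen III, the reticular collagen of soft tissue. It measured 9.12, 6.16 and 6.68 FPKM in the 3 FAK KO samples, 33.4, 40.0 and 39.4 in FAK-WT and 26.3 and 24.1 in FAK-R454 samples. KMF samples held 44.5, 39.0 and 51.0 FPKM and β-catenin ΔGSK samples 0.247, 0.290 and 0.293. Every KMF, FAK-WT and FAK-R454 sample lay above every FAK KO sample, and every β-catenin ΔGSK sample lay far below all others. The log2 fold change (± SE, from limma here and below) was 2.36 ± 0.14 (adjusted p = 2.73e-05) in FAK-WT, 1.79 ± 0.15 (adjusted p = 0.000255) in FAK-R454, 2.61 ± 0.15 (adjusted p = 3.63e-06) in KMF and -4.28 ± 0.17 (adjusted p = 2.42e-07) in β-catenin ΔGSK cells, each over FAK KO. The mean of β-catenin ΔGSK cells was 136-fold lower than that of FAK-WT cells. Between FAK-WT and FAK-R454 cells the values did not overlap, and the log2 fold change was 0.57 ± 0.09 (adjusted p = 0.024), under the 2-fold line.

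Col1a1 (ENSMUSG00000001506, chromosome 11, 94936224 to 94953042, plus strand), the α1 chain of collagen I, stood at 1.53, 1.51 and 0.928 FPKM in FAK KO, 7.57, 8.03 and 11.8 in FAK-WT and 9.04 and 11.2 in FAK-R454 samples. In KMF it was 2.5, 2.30 and 2.58 FPKM, and in β-catenin ΔGSK cells 0.113, 0.239 and 0.229. FAK-WT and FAK-R454 samples overlapped each other and exceeded all others. Over FAK KO the limma log2 fold change was 2.70 ± 0.22 (adjusted p = 0.000114) in FAK-WT, 2.86 ± 0.21 (adjusted p = 0.000142) in FAK-R454 and -2.28 ± 0.28 (adjusted p = 0.000186) in β-catenin ΔGSK cells. With a pseudocount of 1 FPKM the change in β-catenin ΔGSK cells was -0.95 (adjusted p = 0.000239), under 2-fold, and with a filter of 2 FPKM Col1a1 was not tested there. FAK-WT cells also exceeded KMF cells, with a log2 fold change of 1.82 ± 0.16 (adjusted p = 0.000198). Col1a2, whose α2 chain pairs with the product of Col1a1 in ordinary collagen I, was nearly absent, with 0 to 3 fragments per library and at most 0.0159 FPKM.

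Col5a1 (ENSMUSG00000026837, chromosome 2, 27886425 to 28039514, plus strand), the α1 chain of collagen V that helps start fibrils, followed the same order. Its values were 6.91, 7.19 and 4.91 FPKM in FAK KO, 14.5, 17.2 and 28.5 in FAK-WT, 20.3 and 21.3 in FAK-R454, 9.46, 9.20 and 10.4 in KMF and 0.235, 0.347 and 0.186 in β-catenin ΔGSK samples. No sample of FAK-WT or FAK-R454 cells fell within the range of FAK KO, and the β-catenin ΔGSK samples were again the lowest. The log2 fold change over FAK KO was 1.61 ± 0.24 (adjusted p = 0.00172) in FAK-WT, 1.72 ± 0.15 (adjusted p = 0.000304) in FAK-R454 and -4.18 ± 0.21 (adjusted p = 9.74e-07) in β-catenin ΔGSK cells by limma. In KMF cells the log2 fold change of 0.62 ± 0.14 (adjusted p = 0.00579) passed the p threshold but not the 2-fold line. FAK-WT stood 0.98 ± 0.22 (adjusted p = 0.0113) above KMF cells on the log2 scale, just under 2-fold, and passed that line under 6 alternatives, with values of 1.01 to 1.18.

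Col5a2 (ENSMUSG00000026042, chromosome 1, 45374321 to 45503282, minus strand), the partner chain of collagen V, had another pattern. KMF samples measured 6.10, 5.97 and 8.39 FPKM, whereas FAK KO samples held 0.386, 0.452 and 0.572, FAK-WT 0.552, 0.843 and 0.831, FAK-R454 0.538 and 0.443 and β-catenin ΔGSK 0.415, 0.529 and 0.318. KMF alone was above 1 FPKM, and the samples of the other 4 lines lay between 0.318 and 0.843 FPKM. The log2 fold change of KMF over FAK KO was 3.60 ± 0.18 (adjusted p = 1.64e-06), and that of FAK-WT over KMF -3.04 ± 0.19 (adjusted p = 5.58e-05). Col3a1 is its neighbour on chromosome 1: the genes lie 24614 bases apart, on opposite strands with their ends facing each other. Per length, FAK-WT cells held 51.8 ± 7.54 Col3a1 for each Col5a2 (SD, n = 3), and KMF cells 6.64 ± 0.617 (SD, n = 3). The ratio of Col5a1 to Col5a2 was 14.1 ± 4.91 in FAK KO, 1.45 ± 0.175 in KMF, 27.0 ± 6.96 in FAK-WT (SD, n = 3 each), 42.8 ± 7.23 in FAK-R454 (SD, n = 2) and 0.602 ± 0.0472 in β-catenin ΔGSK cells (SD, n = 3). These ratios were not tested.

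Col27a1 and Col5a3, called higher in both re-expressing lines, passed the filter only through those lines. Col27a1 (ENSMUSG00000045672, chromosome 4, 63214004 to 63334991, plus strand), a fibrillar collagen best known from cartilage, measured 0.371, 0.327 and 0.310 FPKM in FAK KO, 1.60, 2.31 and 4.07 in FAK-WT and 1.11 and 1.23 in FAK-R454 samples. KMF samples were at 0.0362, 0.0141 and 0.0633 FPKM and β-catenin ΔGSK samples at 0.0231, 0.0155 and 0.0134. No FAK-WT sample fell among those of FAK KO or FAK-R454, and these did not overlap either. Over FAK KO the log2 fold change was 2.57 ± 0.31 (adjusted p = 0.000599) in FAK-WT and 1.54 ± 0.25 (adjusted p = 0.00503) in FAK-R454 cells by limma, and the latter call was lost without FAK-R454 replicate 1, at 1.61 (adjusted p = 0.0587), or replicate 2, at 1.47 (adjusted p = 0.088). With a pseudocount of 1 FPKM it was 0.70 (adjusted p = 0.00329), and a filter of 2 FPKM left Col27a1 untested in FAK-R454. The log2 fold change of FAK-WT over FAK-R454 cells was 1.02 ± 0.36 (adjusted p = 0.139) and failed the adjusted threshold. FAK-WT cells exceeded the parental KMF line, with a log2 fold change of 4.24 ± 0.35 (adjusted p = 0.00015).

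Col5a3 (ENSMUSG00000004098, chromosome 9, 20770050 to 20815067, minus strand), the α3 chain of collagen V, was measured at 0.168, 0.226 and 0.0467 FPKM in FAK KO, 0.701, 0.731 and 2.58 in FAK-WT and 1.46 and 1.41 in FAK-R454 samples. Its values were 0, 0.0117 and 0.0139 FPKM in KMF and 0.0115, 0.0257 and 0.0167 in β-catenin ΔGSK samples. Re-expressing samples were all above FAK KO, with log2 fold changes of 2.37 ± 0.52 (adjusted p = 0.00887) in FAK-WT and 2.71 ± 0.40 (adjusted p = 0.00336) in FAK-R454 cells by limma. Without FAK-R454 replicate 2 the latter was 2.74 (adjusted p = 0.0502). The FAK-WT mean rests on replicate 3, and without it the mean fell under 1 FPKM and the gene was no longer tested. With a pseudocount of 1 FPKM the FAK-WT value was 0.94 (adjusted p = 0.0226), and a filter of 2 FPKM left the gene untested in both lines. Col11a2 was at or under 0.916 FPKM, with line means from 0.223 in KMF to 0.772 in FAK-WT cells. Col11a1 read 0 to 0.00514 FPKM in β-catenin ΔGSK samples (0 to 1 fragments) and 0.162 to 0.484 FPKM in the samples of every other line. Col2a1 and Col24a1 did not exceed 0.0716 and 0.00522 FPKM.

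**Figure D3:**
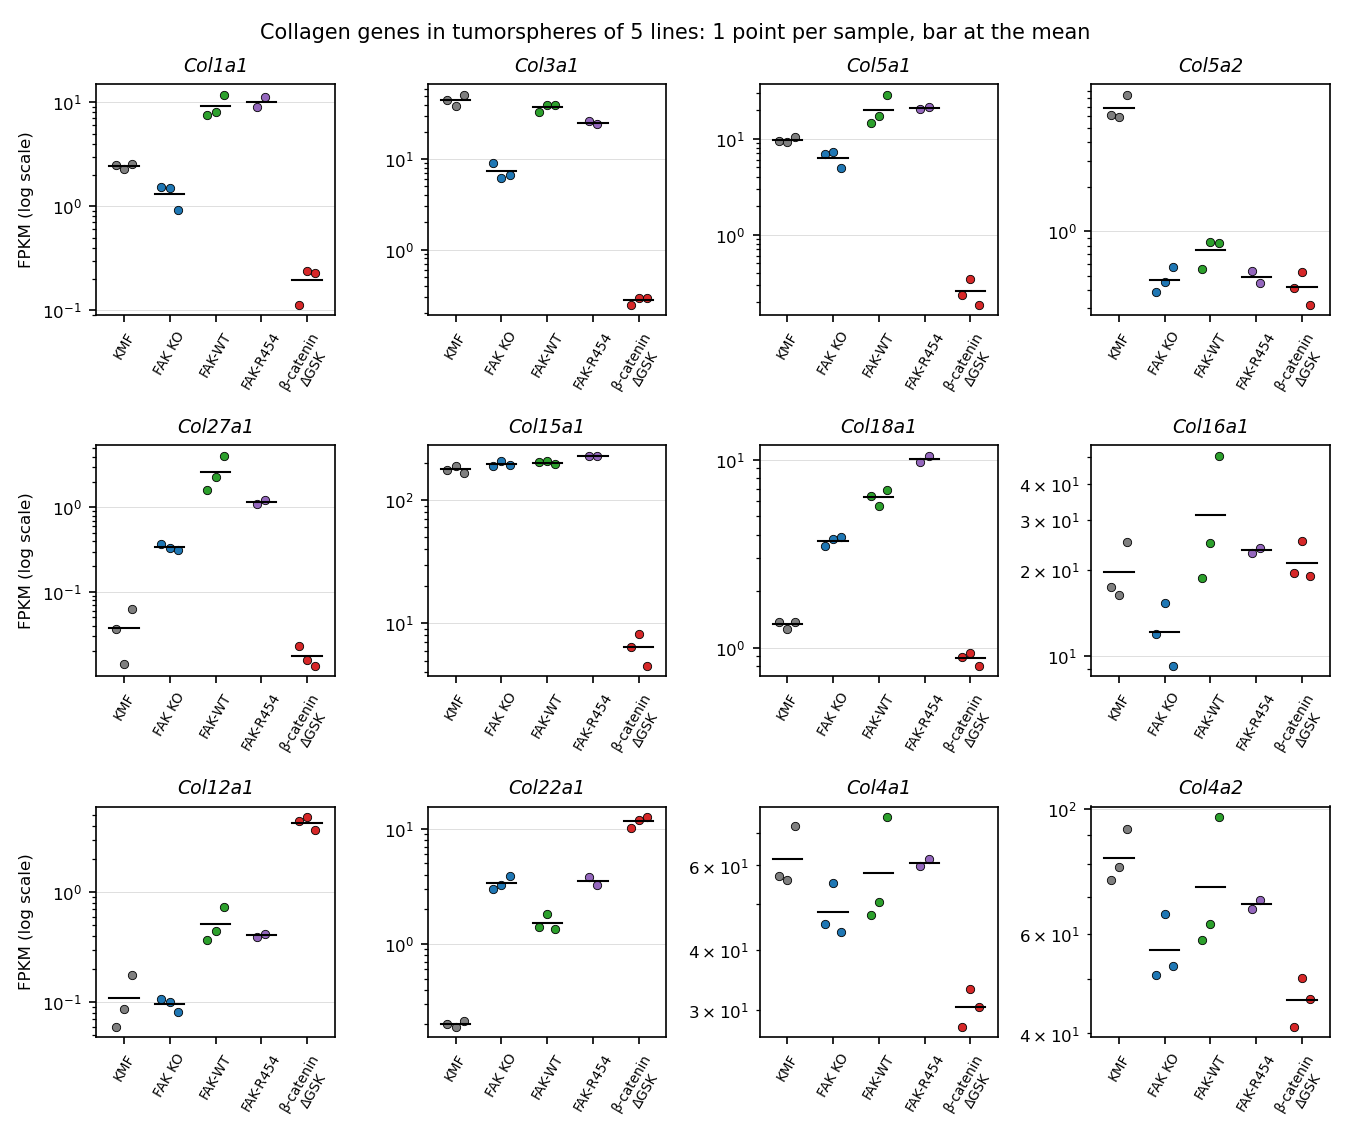
FPKM per sample (vertical axes, log scale, each with its own range) of 12 collagen genes in the 5 lines, with a point per sample and a bar at the line's mean (n = 3, and n = 2 for FAK-R454). Col3a1, Col1a1 and Col5a1 share the order of FAK KO below FAK-WT and FAK-R454 with β-catenin ΔGSK lowest, Col5a2 is high in KMF only, and Col12a1 and Col22a1 are highest in β-catenin ΔGSK cells.

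Of the 6 collagen IV genes, 4 were abundant in all 5 lines and none was called by limma or by voom in any comparison. At an unadjusted p under 0.05 the limma fit had 1 lower and 0 higher of these 4 between FAK-WT and FAK KO cells, 0 lower and 2 higher in FAK-R454, 4 lower and 0 higher in β-catenin ΔGSK and 0 lower and 2 higher in KMF cells. Over all genes these counts were 3779 and 2271 of 11841 in FAK-WT and 2298 and 1980 of 11818 in FAK-R454. In β-catenin ΔGSK they were 4445 and 3079 of 11915, and in KMF 3814 and 3105 of 11893. With voom only 2 of the 4 were lower in β-catenin ΔGSK cells at that p. Col4a2 measured 50.8, 65.2 and 52.6 FPKM in FAK KO samples, 41.1, 50.2 and 46.1 in β-catenin ΔGSK, 75.0, 79.0 and 92.1 in KMF, 58.7, 62.7 and 97.0 in FAK-WT and 66.5 and 69.1 in FAK-R454 samples. The ranges of FAK KO and FAK-WT samples overlapped, with a log2 fold change of 0.34 ± 0.18 (adjusted p = 0.156) and a 95% interval of -0.07 to 0.76. Col4a1 had means of 48.0 ± 6.20 FPKM in FAK KO, 61.9 ± 9.23 in KMF, 57.8 ± 15.5 in FAK-WT (SD, n = 3 each), 60.8 ± 1.45 in FAK-R454 (SD, n = 2) and 30.5 ± 2.73 in β-catenin ΔGSK cells (SD, n = 3). These chains build the common heterotrimer of basement membranes, and their genes start 21 bases apart on chromosome 8 in opposite directions, within the region printed above for Col4a2. The ratio of Col4a2 to Col4a1 was between 1.12 ± 0.00366 in FAK-R454 (SD, n = 2) and 1.5 ± 0.0187 in β-catenin ΔGSK cells (SD, n = 3). In β-catenin ΔGSK cells the log2 fold change over FAK KO was -0.65 ± 0.10 (adjusted p = 0.000763) for Col4a1 and -0.29 ± 0.11 (adjusted p = 0.0478) for Col4a2 by limma, both under 2-fold. Over FAK-WT cells it was -0.89 ± 0.16 (adjusted p = 0.00231) for Col4a1, and without FAK-WT replicate 1 it passed 2-fold, at -1.02 (adjusted p = 0.00143).

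Col4a5 and Col4a6, whose chains form a separate network found in some epithelia and smooth muscle, are another head-to-head pair, on chromosome X with starts 1309 bases apart. Line means ran from 32.9 ± 1.36 FPKM in β-catenin ΔGSK to 48.3 ± 8.43 in KMF cells for Col4a5, and from 23.9 ± 3.34 in FAK-WT to 30.0 ± 5.47 in KMF cells for Col4a6 (SD, n = 3 each). For Col4a6 the log2 fold change was -0.31 ± 0.10 (adjusted p = 0.0397) between FAK-WT and FAK KO cells, with no overlap of samples, and that of Col4a5 -0.45 ± 0.07 (adjusted p = 0.000972) between β-catenin ΔGSK and FAK KO cells.  Neither reached 2-fold. Col4a3 and Col4a4, the chains of the kidney glomerulus and of other specialised membranes, start 72 bases apart on chromosome 1 and stayed under 1 FPKM. β-catenin ΔGSK samples held 0.292, 0.511 and 0.512 FPKM of Col4a3 and 0.481, 0.468 and 0.487 of Col4a4. In both genes these were above every sample of the other lines, whose highest values were 0.145 and 0.339 FPKM, both in KMF. The 2 genes were under the filter of 1 FPKM and were not tested with it.

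The multiplexin Col15a1 (ENSMUSG00000028339, chromosome 4, 47208161 to 47313167, plus strand), whose product links basement membranes to the fibrils beneath them, had the largest log2 fall of any member tested between FAK KO and β-catenin ΔGSK cells. Samples of KMF cells measured 177, 189.6 and 167 FPKM, FAK KO 188, 206 and 191, FAK-WT 205, 206 and 194 and FAK-R454 226 and 228. The β-catenin ΔGSK samples measured 6.47, 8.18 and 4.54 FPKM. All 11 samples without the added β-catenin lay between 167 and 228 FPKM, and the 3 with it were at or under 8.18. Against FAK KO the log2 fold change was -4.95 ± 0.18 (adjusted p = 1.3e-07) by limma, a 30.5-fold lower mean. In FAK-WT and FAK-R454 cells Col15a1 stayed near FAK KO: the log2 fold change was 0.05 ± 0.06 (adjusted p = 0.575) in FAK-WT, with a 95% interval of -0.10 to 0.19, and 0.22 ± 0.06 (adjusted p = 0.0467) in FAK-R454 cells.

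Col18a1 (ENSMUSG00000001435, chromosome 10, 77052178 to 77166548, minus strand), the precursor of endostatin, had separate values in all 5 lines. It measured 1.37, 1.27 and 1.37 FPKM in KMF samples, 0.889, 0.945 and 0.804 in β-catenin ΔGSK, 3.47, 3.80 and 3.88 in FAK KO, 9.74 and 10.5 in FAK-R454 and 6.40, 5.64 and 6.91 in FAK-WT samples. No 2 lines overlapped. Over FAK KO the log2 fold change was 1.42 ± 0.09 (adjusted p = 9.9e-05) in FAK-R454, -1.41 ± 0.11 (adjusted p = 1.56e-05) in KMF and -1.96 ± 0.12 (adjusted p = 3.17e-06) in β-catenin ΔGSK cells by limma. For FAK-WT the log2 fold change was 0.75 ± 0.10 (adjusted p = 0.00104) over FAK KO and -0.67 ± 0.10 (adjusted p = 0.0185) over FAK-R454 cells, both under 2-fold. Col18a1 shares 8825 bases with Slc19a1 on the other strand, which reached 7.73 FPKM, and counting by strand is not stated in the sources used here, so fragments of the shared stretch cannot be assigned with certainty.

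FACIT genes included both members called higher in β-catenin ΔGSK cells. Col12a1 (ENSMUSG00000032332, chromosome 9, 79598991 to 79718831, minus strand), a fibril-surface collagen of tendon and dense tissue, measured 0.107, 0.0999 and 0.0807 FPKM in FAK KO and 4.41, 4.82 and 3.65 in β-catenin ΔGSK samples. KMF samples held 0.0598, 0.0871 and 0.177 FPKM, FAK-WT 0.367, 0.443 and 0.727 and FAK-R454 0.394 and 0.417. The β-catenin ΔGSK samples were above all others without overlap, with a log2 fold change of 4.48 ± 0.18 (adjusted p = 2.5e-07) over FAK KO and 2.88 ± 0.22 (adjusted p = 2e-05) over FAK-WT cells by limma. FAK-WT and FAK-R454 samples also lay above FAK KO, but under the filter of 1 FPKM, and were not tested with it.

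Col22a1 (ENSMUSG00000079022, chromosome 15, 71795795 to 72034227, minus strand), a collagen of tissue junctions such as that of muscle and tendon, measured 3.03, 3.25 and 3.92 FPKM in FAK KO samples, 10.2, 12.0 and 12.7 in β-catenin ΔGSK, 0.203, 0.191 and 0.216 in KMF, 1.40, 1.84 and 1.35 in FAK-WT and 3.80 and 3.23 in FAK-R454 samples. Only FAK KO and FAK-R454 overlapped, and their log2 fold change was 0.05 ± 0.14 (adjusted p = 0.81) with a 95% interval of -0.27 to 0.37. In FAK-WT cells it was -1.11 ± 0.16 (adjusted p = 0.00129) over FAK KO and -1.16 ± 0.17 (adjusted p = 0.0179) over FAK-R454 cells. With a pseudocount of 1 FPKM both were under 2-fold, at -0.80 (adjusted p = 0.00123) and -0.84 (adjusted p = 0.0154). The call against FAK-R454 was also lost without FAK-WT replicate 1, at -1.10 (adjusted p = 0.0507), without FAK-R454 replicate 1, at -1.04 (adjusted p = 0.184), and without FAK-R454 replicate 2, at -1.27 (adjusted p = 0.159). Over FAK KO the log2 fold change was 1.75 ± 0.12 (adjusted p = 6.18e-06) in β-catenin ΔGSK and -3.52 ± 0.17 (adjusted p = 1.5e-06) in KMF cells.

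Col16a1 (ENSMUSG00000040690, chromosome 4, 130047840 to 130099283, plus strand), which is found near fibrils and basement membranes, was the most abundant FACIT gene. Its values were 17.4, 16.4 and 25.1 FPKM in KMF samples, 19.5, 25.2 and 19.0 in β-catenin ΔGSK, 11.9, 15.3 and 9.23 in FAK KO, 23.0 and 24.0 in FAK-R454 and 18.7, 24.9 and 50.3 in FAK-WT samples. Every sample of the other lines was above every FAK KO sample. The log2 fold change over FAK KO was 1.26 ± 0.33 (adjusted p = 0.0171) in FAK-WT cells by limma, and with FAK-WT replicate 3 left out it was 0.86 (adjusted p = 0.0136), under 2-fold. Without FAK KO replicate 1 or 3 its adjusted p was 0.06 or 0.0627. In FAK-R454 it was 0.98 ± 0.18 (adjusted p = 0.00767), in β-catenin ΔGSK 0.82 ± 0.18 (adjusted p = 0.0041) and in KMF cells 0.69 ± 0.20 (adjusted p = 0.0193), all under 2-fold. In FAK-R454 cells it passed 2-fold with FAK KO replicate 2 left out, at 1.16 (adjusted p = 0.000166), and, at 1.00 to 1.01, under median-of-ratios scaling, chromosome centring and voom. In β-catenin ΔGSK cells it was 1.00 (adjusted p = 0.000918) without that replicate.

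Col20a1, a further FACIT gene, measured 2.39, 2.61 and 2.69 FPKM in FAK KO samples, 1.03, 1.65 and 1.57 in β-catenin ΔGSK, 1.07, 1.10 and 1.39 in KMF, 1.40, 1.73 and 2.32 in FAK-WT and 2.26 and 2.08 in FAK-R454 samples. FAK KO samples exceeded those of each other line. By limma Col20a1 had a log2 fold change of -1.06 ± 0.14 (adjusted p = 0.000345) in KMF over FAK KO, and -0.99 (adjusted p = 0.00203) without KMF replicate 1 and -0.71 (adjusted p = 0.00027) with a pseudocount of 1 FPKM. The transcript 9230112E08Rik overlaps 741 bases of it on the same strand and reached 3.03 FPKM, so the value of Col20a1 is uncertain. Col9a3, a cartilage chain, had line means of 0.576 FPKM in KMF to 1.34 in β-catenin ΔGSK cells and was not called. Col14a1 ran from 0.161 FPKM in β-catenin ΔGSK to 0.817 in KMF cells. Col9a2 did not exceed 0.0341 FPKM, and Col9a1 and Col19a1 had no fragment in any library.

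Col23a1, the transmembrane collagen gene with the highest line mean, measured 0.931, 1.23 and 0.716 FPKM in KMF samples, 1.12, 1.07 and 1.29 in β-catenin ΔGSK, 1.88, 1.99 and 2.14 in FAK KO, 2.05 and 2.26 in FAK-R454 and 1.96, 1.86 and 1.32 in FAK-WT samples. KMF and β-catenin ΔGSK samples were all below FAK KO. For KMF over FAK KO the log2 fold change was -1.02 ± 0.19 (adjusted p = 0.00232) by limma, close to the 2-fold line, and it was -0.84 (adjusted p = 0.00371) without KMF replicate 3 and -0.97 (adjusted p = 0.0116) without FAK KO replicate 3. The call was also lost under median-of-ratios scaling, at -0.97 (adjusted p = 0.0033), with chromosome centring, at -0.92 (adjusted p = 0.005), and with a pseudocount of 1 FPKM, at -0.62 (adjusted p = 0.00159). In KMF cells Col17a1 was the higher of these genes. Col17a1, the hemidesmosome collagen of basal epithelial cells, had line means of 0.700 ± 0.0224 FPKM in β-catenin ΔGSK to 1.31 ± 0.149 in FAK KO cells (SD, n = 3 each), and the change between these lines was -0.82 ± 0.16 (adjusted p = 0.0024) on the log2 scale. Col13a1 was listed at 0 in every library and Col25a1 at no more than 1 fragment.

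The remaining members stayed at low levels. Col28a1, a von Willebrand factor A domain collagen, measured 0.314, 0.526 and 0.329 FPKM in FAK KO, 0.352 to 0.452 in FAK-WT and 0.567 to 0.579 in FAK-R454 samples, against 0.0339 to 0.114 in KMF and 0.112 to 0.150 in β-catenin ΔGSK samples. Col7a1, the anchoring fibril collagen of skin, ran from 0.0381 to 0.279 FPKM over all samples. The network genes Col8a1, Col8a2 and Col10a1 did not exceed 0.0388, 0.0665 and 0.0509 FPKM, and Col26a1 reached 1 fragment. Col10a1 lies wholly within Nt5dc1, so its few fragments cannot be told apart from those of that gene.

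**Figure D4:**
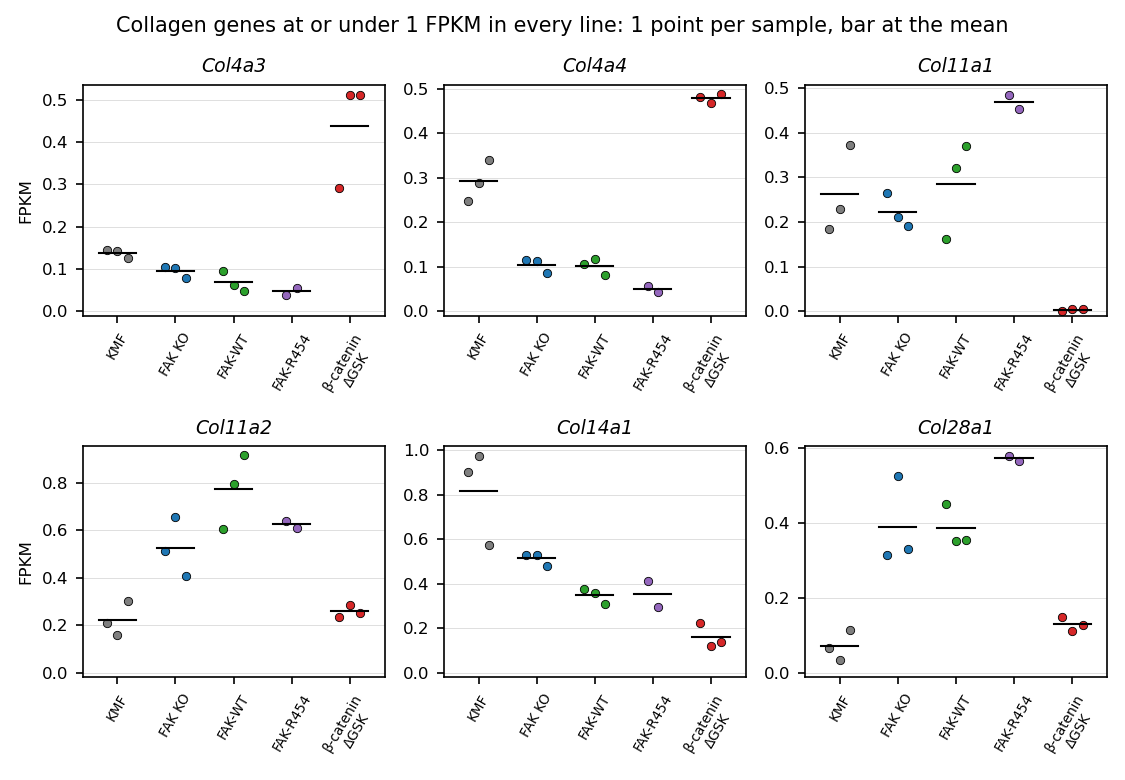
FPKM per sample (vertical axes, linear from 0) of 6 collagen genes that stayed at or under 1 FPKM in the mean of every line, with a point per sample and a bar at the mean (n = 3, and n = 2 for FAK-R454). Col4a3 and Col4a4 are highest in β-catenin ΔGSK cells, Col11a1 is near 0 there, and Col28a1 is lower in KMF and β-catenin ΔGSK than in the other lines.

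A single library stood apart among the FAK-WT samples. Replicate 3 was the highest of its line for 11 of 16 members above 1 FPKM, with a median log2 difference of 0.43 from the mean of replicates 1 and 2, while over all genes that median was -0.04. Its summed level of 10 hypoxia-response genes was 753 FPKM, against 398 and 437 FPKM in replicates 1 and 2. FAK KO samples summed to 266 to 359 FPKM on that list, FAK-R454 to 399 to 403, β-catenin ΔGSK to 332 to 459 and KMF to 839 to 1128. The part of this state in the collagen levels was not tested. Without replicate 3, 4 members were called higher in FAK-WT cells over FAK KO (Col1a1, Col3a1, Col5a1 and Col27a1). For Col1a1 the log2 fold change without it was 2.5 (adjusted p = 0.000151), for Col3a1 2.33 (adjusted p = 7.37e-05), for Col5a1 1.32 (adjusted p = 0.000873) and for Col27a1 2.22 (adjusted p = 0.000563) by limma. In KMF, replicate 3 was likewise highest for 10 of 13 members.

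The genes that handle collagen outside and inside the cell were counted from lists, matched to the table by symbol or, for P3h1, P3h2, P3h3 and P3h4, by gene identifier. Of 20 genes for chain modification and folding, such as prolyl and lysyl hydroxylases and the chaperone Serpinh1, 19 were tested for FAK-WT over FAK KO and 0 were called by limma, beside 2.91% of all genes called higher and 1.71% lower, with a median log2 fold change of 0.32. At an unadjusted p under 0.05, 12 were higher and 2 lower, beside 2271 and 3779 of 11841 genes, and voom called 0. In FAK-R454 cells limma called 0 of 19, beside 1.93% of all genes higher and 0.812% lower, with a median of 0.30. At that unadjusted p 12 were higher and 2 lower, beside 1980 and 2298 of 11818 genes. Voom called 1, Creb3l1, a transcription factor of secretory cells. In β-catenin ΔGSK cells 1 of 18 was called lower, beside 6.99% of all genes, the prolyl hydroxylase subunit P4ha3, from 5.52 ± 0.758 to 2.25 ± 0.326 FPKM (log2 fold change -1.26, adjusted p = 8.83e-05). In KMF cells 1 of 19 was called higher, beside 3.97% of all genes, the prolyl 3-hydroxylase P3h2, from 4.13 ± 0.636 to 9.17 ± 0.449 FPKM (log2 fold change 1.14, adjusted p = 8.69e-05).

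The counts of the next lists stand beside the same shares of all genes, which for β-catenin ΔGSK cells are 5.13% higher and 6.99% lower, for KMF 3.97% and 4.04%, for FAK-WT 2.91% and 1.71% and for FAK-R454 1.93% and 0.812%. Of 13 genes for processing and crosslinking, 3 of 11 tested were called higher in FAK-WT cells: the procollagen enhancer Pcolce2, the lysyl oxidase Loxl2 and the N-propeptidase Adamts3. Pcolce2 rose from 1.92 ± 0.183 to 4.87 ± 0.735 FPKM (log2 fold change 1.30, adjusted p = 0.000306). Loxl2 went from 6.35 ± 1.63 to 16.5 ± 10.8 FPKM (log2 fold change 1.20, adjusted p = 0.0367), with a wide spread in FAK-WT, and its call was lost without FAK-WT replicate 3, at a log2 fold change of 0.70, and without each FAK KO replicate in turn, at adjusted p of 0.0521 to 0.119. Adamts3 was no longer above 1 FPKM without FAK-WT replicate 1. In FAK-R454 cells 3 of 10 were called higher, the lysyl oxidases Lox, Loxl1 and Loxl3. Loxl1 rose from 45.8 ± 5.13 to 99.0 ± 4.15 FPKM (log2 fold change 1.12, adjusted p = 0.000264), and the call of Lox was lost without FAK-R454 replicate 2 (adjusted p = 0.0555). In β-catenin ΔGSK cells 3 of 11 were called higher (Loxl2, Adamts3 and Adamts14) and 4 lower (Lox, Loxl3, Adamts2 and Bmp1). Adamts2, which trims the N-propeptide of fibrillar procollagens, fell from 7.12 ± 0.470 to 1.19 ± 0.104 FPKM (log2 fold change -2.48, adjusted p = 4.31e-07). Bmp1, which trims the C-propeptide, fell from 55.5 ± 2.96 to 23.8 ± 2.71 FPKM (log2 fold change -1.22, adjusted p = 9.59e-06). The calls of Lox (without FAK KO replicate 1 or 2 or β-catenin ΔGSK replicate 3), of Adamts14 (without FAK KO replicate 1 or β-catenin ΔGSK replicate 3) and of Loxl3 (without β-catenin ΔGSK replicate 1) were lost. In KMF cells Pcolce2 and Loxl2 were called higher and Loxl3 lower, 3 of 10, the last lost without KMF replicate 1.

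Among fibril-associated proteoglycans and glycoproteins, 3 of 6 tested genes were called higher over FAK KO in FAK-WT cells (Fn1, Bgn and Prelp) and 2 of 6 in FAK-R454 cells (Fn1 and Bgn). Fn1, the gene of fibronectin, rose from 55.7 ± 7.35 to 192 ± 68.1 FPKM (log2 fold change 1.73, adjusted p = 0.000677) in FAK-WT. Bgn, the small proteoglycan biglycan, rose from 49.0 ± 4.20 to 141 ± 7.58 FPKM (log2 fold change 1.52, adjusted p = 1.2e-05) in FAK-WT and fell from 49.0 ± 4.20 to 4.67 ± 0.198 FPKM (log2 fold change -3.36, adjusted p = 1.62e-08) in β-catenin ΔGSK cells. It stood highest in KMF, from 49.0 ± 4.20 to 531 ± 24.3 FPKM (log2 fold change 3.44, adjusted p = 3.95e-08). Dcn, decorin, fell in β-catenin ΔGSK cells, from 99.0 ± 19.9 to 38.6 ± 7.75 FPKM (log2 fold change -1.36, adjusted p = 0.000203). KMF cells held less Dcn and more Bgn and Prelp than FAK KO cells.

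Of 10 collagen receptors, 5 were tested in each comparison. Itga10, an integrin chain that binds collagen, was called higher in FAK-WT cells, from 3.93 ± 0.231 to 9.55 ± 0.245 FPKM (log2 fold change 1.26, adjusted p = 3.05e-05), and in KMF, from 3.93 ± 0.231 to 33.0 ± 5.23 FPKM (log2 fold change 3.02, adjusted p = 4.57e-07). Mrc2, an endocytic collagen receptor, was called lower in β-catenin ΔGSK cells, from 11.9 ± 0.771 to 4.74 ± 0.377 FPKM (log2 fold change -1.32, adjusted p = 5.86e-06), and with the receptor kinase Ddr2 also in KMF cells. FAK-R454 cells had 0 of 5 called by limma or voom. At an unadjusted p under 0.05 limma had 3 higher and 0 lower, beside 1980 and 2298 of 11818 genes. Of 7 breakdown genes 2 passed the filter, and the collagenase Mmp13 was called lower in β-catenin ΔGSK cells, from 13.1 ± 2.83 to 1.17 ± 0.212 FPKM (log2 fold change -3.37, adjusted p = 1.16e-06), and in KMF cells, from 13.1 ± 2.83 to 0.751 ± 0.169 FPKM (log2 fold change -3.95, adjusted p = 1.64e-06). Between FAK-WT and FAK-R454 cells limma called 0 of 43 tested genes of these 5 lists, beside 0.696% of all genes higher and 0.747% lower. At an unadjusted p under 0.05, 10 were higher and 11 lower, beside 1132 and 2038 of 11782 genes, and voom called 1 higher, Loxl4. Against FAK-WT cells β-catenin ΔGSK cells had 14 of 43 called lower and 0 higher by limma, beside 7.17% and 4.48% of all genes. Among the 14 were Bgn, P4ha3, Pcolce2 and Adamts2, and voom gave those counts too. At an unadjusted p under 0.05 in limma 2 were higher and 34 lower, beside 3293 and 3477 of 11873 genes. Without FAK-WT replicate 3 the calls of Plod1 and Fn1 among the 14 were under 2-fold. Between FAK-WT and KMF cells 8 of 43 were called higher in FAK-WT (P3h3, Loxl3, Adamts3, Mrc2, Ddr2, Mmp13, Dcn and Fn1) and 2 lower (Itga10 and Bgn), beside 3.82% and 2.11% of all genes. Adamts3 was again not above 1 FPKM without FAK-WT replicate 1.

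Markers of ovarian surface epithelium and of other cell types moved with some of these values. Of the 7 epithelium markers 6 were tested. Upk3b was called higher over FAK KO in FAK-R454 cells, from 4.03 ± 0.942 to 31.6 ± 0.649 FPKM, and in β-catenin ΔGSK cells, at 8.74 ± 0.345 FPKM, the latter call being lost without FAK KO replicate 3, at a log2 fold change of 0.99. Its call lower in FAK-WT when set against FAK-R454 was lost without either FAK-R454 replicate, at adjusted p of 0.0967 and 0.0992 by limma. Wt1 was called higher in β-catenin ΔGSK cells, from 97.8 ± 2.71 to 227 ± 10.3 FPKM, and also against FAK-WT cells, over which Krt8 and Msln were called lower. The Msln call fell under 2-fold without FAK-WT replicate 2 or β-catenin ΔGSK replicate 1 or 3, at log2 fold changes of -0.99, -0.96 and -0.99. The summed epithelium list was 1068 to 1250.03 FPKM in FAK KO, 1569 to 1809 in FAK-WT, 1257 to 1294 in FAK-R454, 1173 to 1203 in KMF and 1218 to 1399 in β-catenin ΔGSK samples. Of the 6 stromal markers, Pdgfra was called higher in FAK-WT, FAK-R454 and KMF than in FAK KO cells and lower in β-catenin ΔGSK cells, from 3.03 ± 0.327 to 0.815 ± 0.0490 FPKM (log2 fold change -1.77, adjusted p = 1.11e-05), and Dcn was called lower in both KMF and β-catenin ΔGSK cells. The summed stromal list was 89.1 to 125 FPKM in FAK KO, 116 to 134 in FAK-WT, 111 to 123 in FAK-R454, 39.3 to 47.3 in KMF and 30.7 to 45.2 in β-catenin ΔGSK samples, nearly all of it Dcn and Pdgfra. The other 4 stromal markers (Pdgfrb, Thy1, Lum and Acta2) did not exceed 0.243 FPKM. Against FAK-WT cells, limma called Dcn and Pdgfra lower with β-catenin ΔGSK and Dcn lower in KMF. The 4 endothelial markers, mostly Tek, summed to 17.8 to 19.2 FPKM in FAK KO, 17.5 to 18.6 in FAK-WT, 17.1 to 17.8 in FAK-R454, 29.6 to 30.0 in KMF and 6.55 to 7.42 in β-catenin ΔGSK samples, with Kdr and Cdh5 near 0. Tek, at 17.4 ± 0.745 FPKM in FAK KO and 6.75 ± 0.480 in β-catenin ΔGSK cells, and Pecam1, at 1.02 ± 0.203 and 0.286 ± 0.136 FPKM, each fell by the limma test with β-catenin ΔGSK, whether set against FAK KO or FAK-WT. Without FAK KO replicate 1 or 2 Pecam1 was not above 1 FPKM in FAK KO and was not tested. The 5 leukocyte markers, nearly all Cd68, summed to 2.80 to 3.16 FPKM in FAK KO, 6.60 to 12.3 in FAK-WT, 4.24 to 4.34 in FAK-R454, 2.55 to 3.62 in KMF and 1.05 to 1.87 in β-catenin ΔGSK samples, with Ptprc at or near 0. Cd68 was called higher in FAK-WT than in either FAK KO or KMF cells and, with β-catenin ΔGSK, lower against both FAK KO and FAK-WT. The samples were cultures of the KMF line, of its clone KT13 or of lines made from KT13. In such bulk samples fewer cells that express a marker and less of its RNA per cell cannot be told apart. The part of cells that express these markers, or of a shift in the epithelium markers, in the collagen differences was not tested.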

How the data were processed

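RNA was isolated from 14 tumorsphere samples, and poly(A)-selected libraries were made with a NEBNext Ultra kit and read as paired ends. The authors mapped reads with TopHat2 by the paper's methods, whereas the submitters' processing notes name STAR 2.5, CASAVA 1.8 and mouse build mm10. The counting tool and its strand setting are not given in the sources used here. The authors deposited FPKM per gene and sample, not scaled further between libraries. Gene lengths in the deposited table gave back fragment counts, and 99.95% of values were whole within 0.01. Libraries of a line differed beyond sampling noise (chi-square per degree of freedom 3.15 to 42.5), so no library was taken as deposited in duplicate, which does not show that they came from separate cultures.

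Values were analysed as log2(FPKM + 0.1) with limma 3.58.1 (R 4.3.3, empirical Bayes with an intensity trend), 2 lines at a time, over all genes with a mean above 1 FPKM in at least 1 of the lines. Fold changes on this scale understate the change of low genes. P-values were Benjamini-Hochberg adjusted over all genes tested, and a call needed an adjusted p under 0.05, 2-fold and a mean above 1 FPKM. An exact permutation test of 3 against 3 samples cannot go below p = 0.1 and was not used. The fit was tested on simulated data. Sequences were read with Python 3.11.15 and pandas 2.3.3, and plots were drawn with matplotlib 3.10.9. Values in every sample are given for members called in a comparison. They are also given for the member with the highest line mean in the fibrillar, collagen IV, multiplexin, FACIT and transmembrane classes. The other members are given mostly by line or range. The members and gene lists were chosen with earlier results of these data known. Alternatives were a pseudocount of 1, no filter, a filter of 2 FPKM, median-of-ratios scaling, 1 fit on all 5 lines, a replicate block, voom on recovered fragments, centring by chromosome, no fold threshold and leaving out each sample. A replicate number shared between lines did not pair samples by the labels. A key of sample names that repeats the labels was not used. A marker gene of the lists is not reported here.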

Additional observations from a re-analysis of the deposited data

Results flagged for a closer look

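The effects of 4 lines over the shared FAK KO samples were set against each other in 3 direct limma comparisons, and 16 differences were called. For Col22a1 the log2 effect of FAK-WT minus that of FAK-R454 was -1.16. In that comparison 0.696% of all genes were called higher and 0.747% lower. Active β-catenin and FAK-WT, both added to KT13, differed in 9 members, given as the log2 effect of β-catenin ΔGSK minus that of FAK-WT. This difference was -6.64 for Col3a1, -5.79 for Col5a1, -5.00 for Col15a1, -4.98 for Col1a1, -4.46 for Col27a1, -3.36 for Col5a3 and -2.71 for Col18a1. It was 2.88 for Col12a1 and 2.85 for Col22a1. Over all genes 4.48% were called higher and 7.17% lower with β-catenin ΔGSK. Col1a1, Col3a1, Col5a1, Col5a3, Col12a1, Col18a1 and Col27a1 passed the filter there through 1 line only.

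FAK-WT and the parental KMF line differed in 6 members, given as the log2 effect of FAK-WT minus that of KMF. The difference was 4.24 for Col27a1, 3.48 for Col5a3, 2.41 for Col22a1, 2.15 for Col18a1 and 1.82 for Col1a1, and -3.04 for Col5a2. Over all genes 3.82% were called higher and 2.11% lower in FAK-WT. Col5a2, Col5a3, Col22a1 and Col27a1 passed the filter there through 1 line only. KT13 is 1 clone, so clone and FAK cannot be told apart in the KMF values.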

How the results depend on the processing

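The alternatives gave 965 values for the 71 collagen results that passed the adjusted threshold. Of these values 877 kept direction and side of that threshold, 88 lost it and 0 reversed. A gene that an alternative left untested gave no value there. The 2-fold and 1 FPKM rules were left out of this count. So a call lost under 2-fold, such as Col23a1 in KMF against FAK KO with a pseudocount of 1 FPKM, counts as kept. Differences that failed the threshold were not followed in this way. Those near 0, such as that of Col22a1 between FAK-R454 and FAK KO cells, can change sign when 1 sample is left out. With a pseudocount of 1 FPKM the count of members called lower was 0 in FAK-WT against FAK KO, 2 in KMF against FAK KO and 0 in FAK-WT against FAK-R454. With no fold threshold it was 3, 11, 2 and 12 lower in FAK-WT against FAK KO, β-catenin ΔGSK against FAK KO, FAK-WT against FAK-R454 and β-catenin ΔGSK against FAK-WT, and 7 and 1 higher in KMF against FAK KO and FAK-WT against FAK-R454. Over all genes the lower counts were, in that order, 2986 of 11841, 4100 of 11915, 523 of 11782 and 3140 of 11873. The higher ones were 2749 of 11893 and 398 of 11782. A filter of 2 FPKM left 3 members higher in FAK-WT than in KMF, because Col5a3 and Col22a1 were then not tested. Leaving out 1 sample at a time gave 4 to 6 members higher in FAK-WT and 4 to 7 in FAK-R454 than in FAK KO, 2 to 3 higher and 5 lower in β-catenin ΔGSK than in FAK KO, 3 to 4 lower in KMF than in FAK KO, 6 to 8 lower in β-catenin ΔGSK than in FAK-WT, 4 to 6 higher in FAK-WT than in KMF and 0 to 1 lower in FAK-WT than in FAK-R454. The 0 came without FAK-WT replicate 1, FAK-R454 replicate 1 or FAK-R454 replicate 2. With the replicate number as a block the counts higher and lower were 6 and 1, 6 and 0, 2 and 5, and 2 and 4 for FAK-WT, FAK-R454, β-catenin ΔGSK and KMF against FAK KO, 0 and 1 for FAK-WT against FAK-R454, 2 and 7 for β-catenin ΔGSK against FAK-WT and 5 and 1 for FAK-WT against KMF, and the block changed none of these counts. Same-numbered samples correlated above 0.1 in every pair of no comparison (β-catenin ΔGSK against FAK KO came nearest, at 0.45, 0.28 and 0.08), and between 0 and 4 of 6 samples correlated best with their own number. Median-of-ratios scaling moved the median of all genes from -0.09 to 0.02 in β-catenin ΔGSK against FAK KO and by less elsewhere. With 2 samples, FAK-R454 leaves a lone sample when 1 is left out, which is then assumed to vary like the other line. Members without a line mean above 1 FPKM differed widely in fragments per library, with 0 to 5 for Col10a1 and 20 to 176 for Col14a1. Their differences were tested only in the alternative with no filter, which took in 33 to 35 members per comparison.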
